A study of Mus musculus with 24 samples.

Results

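The citric acid cycle and the breakdown of the branched-chain amino acids were followed here through 34 genes in inguinal white adipose tissue, the fat depot under the skin of the groin, of mice on a high-fat diet. The genes were taken by symbol, as enzymes and regulators of the 2 pathways, with no threshold on their values. The cycle had 17 genes, among them those of the pyruvate dehydrogenase complex and Pcx, and the branched-chain pathway had 17. All 34 were found among the 17541 genes of the deposited table, and all 34 were among the 15939 genes tested. The mice were wild-type C57BL/6J in 4 groups: 5 Aged BAM15 and 6 Aged CTRL mice of 92 weeks, and 6 Young BAM15 and 7 Young CTRL mice of 16 weeks. BAM15 is a chemical uncoupler of mitochondria: it carries protons across the inner membrane, so that fuel is burnt with less ATP made. The labels give neither its dose nor its duration, and the series names Young CTRL as its reference.

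The citric acid cycle takes acetyl groups, joins them to oxaloacetate through citrate synthase and oxidises them, which feeds electrons to the respiratory chain. The pyruvate dehydrogenase complex supplies acetyl groups from glucose, and pyruvate carboxylase (Pcx) refills oxaloacetate, which in fat cells also serves the making of glycerol and fatty acids. Leucine, isoleucine and valine are first stripped of their amino group by the transaminase Bcat2 and then oxidised by the branched-chain ketoacid dehydrogenase complex. The kinase Bckdk switches that complex off and the phosphatase Ppm1k switches it on. The later steps yield acetyl groups, or propionate that enters the cycle as succinate. Fat cells carry out this breakdown at a high rate, and blood levels of these amino acids are known to be raised in obesity.

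RNA was read from the 3′ ends of transcripts, and each gene's level is given as CPM, its counts scaled to a common library size. As the reads come from transcript ends, CPM was not divided by transcript length. Levels are compared here between mice and not between genes. Library totals ran from 8.62 to 21.9 M counts. All 12 adipocyte markers were measured, and their mean log2 CPM was 10.70 in Aged BAM15, 10.60 in Aged CTRL, 10.50 in Young BAM15 and 10.71 in Young CTRL. The mean log2 CPM of 10 B cell markers was 2.12, 0.795, 4.55 and 0.745 in the same groups, with sums of 2.13 to 422 CPM in Aged BAM15, 7.52 to 327 in Aged CTRL, 3.77 to 1687 in Young BAM15 and 4.68 to 491 in Young CTRL. The sum of 11 skeletal muscle markers reached 10408 CPM in Aged BAM15 1, 23028 in Aged CTRL 1, 66720 in Young BAM15 3 and 59368 in Young CTRL 7, and was as low as 187, 25.2, 29.2 and 29.9 CPM in the same groups. In 4 libraries, Aged BAM15 2, Aged BAM15 5, Aged CTRL 2 and Young CTRL 4, the mitochondrial ribosomal transcript mt-Rnr2 stayed at or below 0.257% of all counts, where each of the other 20 had 0.722% or more, and transcripts of the mitochondrial genome 12.0 to 21.4%, against at most 9.27%. These 4 libraries also had the highest totals, 18.4 to 21.9 M counts, where the next, Aged CTRL 6, had 17.9 M. Whether depth has a part in their values was not tested. They carry a large part of what follows, and values without them are given beside the named genes.

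The members lie on 14 chromosomes. Promoter sequences, the 250 bases before the RefSeq transcription start on GRCm38.p6, were held for 16 genes of each pathway. They are shown for Pdhb and Pdha1, which stood apart in 4 of the libraries, and for Bckdhb, Ppm1k and Bcat2, the branched-chain genes with the smallest p in aged mice on BAM15. Capitals mark CCAAT, or ATTGG where it lies on the other strand, and windows run 5′ to 3′ on the gene's own strand.
Pdhb: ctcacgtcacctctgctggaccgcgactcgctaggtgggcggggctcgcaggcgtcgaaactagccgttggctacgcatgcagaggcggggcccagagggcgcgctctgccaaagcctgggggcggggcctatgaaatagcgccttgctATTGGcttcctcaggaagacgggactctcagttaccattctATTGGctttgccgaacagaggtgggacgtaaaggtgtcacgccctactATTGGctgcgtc
Pdha1: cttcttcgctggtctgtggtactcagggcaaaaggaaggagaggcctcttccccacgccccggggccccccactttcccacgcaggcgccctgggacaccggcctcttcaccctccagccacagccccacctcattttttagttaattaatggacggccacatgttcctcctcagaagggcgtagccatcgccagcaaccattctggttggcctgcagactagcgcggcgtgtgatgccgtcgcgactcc
Bckdhb: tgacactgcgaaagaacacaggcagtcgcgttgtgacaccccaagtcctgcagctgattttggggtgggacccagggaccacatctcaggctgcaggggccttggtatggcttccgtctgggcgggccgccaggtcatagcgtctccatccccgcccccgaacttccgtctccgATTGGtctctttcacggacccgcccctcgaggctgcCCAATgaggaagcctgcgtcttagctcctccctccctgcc
Ppm1k: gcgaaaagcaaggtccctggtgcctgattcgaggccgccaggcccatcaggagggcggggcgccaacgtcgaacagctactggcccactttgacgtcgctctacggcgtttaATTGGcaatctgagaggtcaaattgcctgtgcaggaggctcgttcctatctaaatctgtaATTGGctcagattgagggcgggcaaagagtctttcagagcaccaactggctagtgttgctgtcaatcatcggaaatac
Bcat2: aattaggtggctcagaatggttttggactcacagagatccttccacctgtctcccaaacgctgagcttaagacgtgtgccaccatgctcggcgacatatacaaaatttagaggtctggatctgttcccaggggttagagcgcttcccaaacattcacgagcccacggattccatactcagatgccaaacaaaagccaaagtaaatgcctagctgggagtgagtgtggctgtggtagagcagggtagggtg
The windows are chr14:8172993-8173242 (minus strand) for Pdhb, chrX:160138431-160138680 (minus) for Pdha1, chr9:83924887-83925136 (plus) for Bckdhb, chr6:57535488-57535737 (minus) for Ppm1k and chr7:45569903-45570152 (plus) for Bcat2. RefSeq holds a further start for Bckdhb and for Bcat2, not shown. CCAAT, the box bound by NF-Y, lay in 9 of 16 cycle promoters (56.2%) and 10 of 16 branched-chain promoters (62.5%), against 37.5% of 27025 genes. GCATGCGC, the site of the nuclear respiratory factor NRF1, lay in 1 promoter of each pathway (6.25%), that of Ogdh and that of Pccb, against 2.56% of all genes. AAGGTCA, the site of estrogen-related receptors, lay in 0 of 16 in each pathway, against 4.7%. None of the 3 motifs is contained in another, all were searched on both strands, and a match is a description of the window only.

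In the 4 libraries with low mt-Rnr2, many transcripts of both pathways were far higher than in the other libraries. Pdha1, the catalytic alpha subunit of pyruvate dehydrogenase, lay at 902 CPM in Aged BAM15 2, 700.0 in Aged BAM15 5, 596 in Aged CTRL 2 and 514 in Young CTRL 4, against 98.1 to 186 CPM in the other 20. Pdhb, the beta subunit of the same enzyme, lay at 914, 548, 611 and 470 CPM in these libraries, against 79.4 to 225 CPM. Thus the ranges of both genes in the 4 and in the other 20 libraries were separate. This rests on a single library in each CTRL group, and on none in Young BAM15. Pcca, a subunit of propionyl-CoA carboxylase in the branched-chain pathway, lay at 118 to 333 CPM in the 4, against 30.5 to 81.2 CPM in the others.

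In all, 11 of the 34 members lay above every one of the other 20 libraries in all 4: Cs, Idh3b, Dlst, Dld, Pdha1, Pdhb and Pdhx of the cycle, and Auh, Acad8, Acadsb and Pcca of the branched-chain pathway. The share over all genes was 6.91%. Pcx went the other way, with 12.7 to 58.6 CPM in the 4 and 65.7 to 226 CPM in the others, as did 8.76% of all genes. These libraries were first set apart by mt-Rnr2, which is no member. Against the mean of the rest of its own group, Aged BAM15 2 had a median log2 deviation of 1.24 over the cycle genes and 1.05 over the branched-chain genes, with 14 and 15 of 17 higher. Aged BAM15 5 had 1.00 and 0.75 with 13 and 14 higher, Aged CTRL 2 had 0.97 and 0.14 with 12 and 9 higher, and Young CTRL 4 had 0.73 and 0.70 with 13 of 17 higher in each pathway. Over all genes 44.8 to 47.7% were higher in these libraries. Young BAM15 held none of them, so a comparison with that group cannot be balanced for them.

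**Figure D1:**
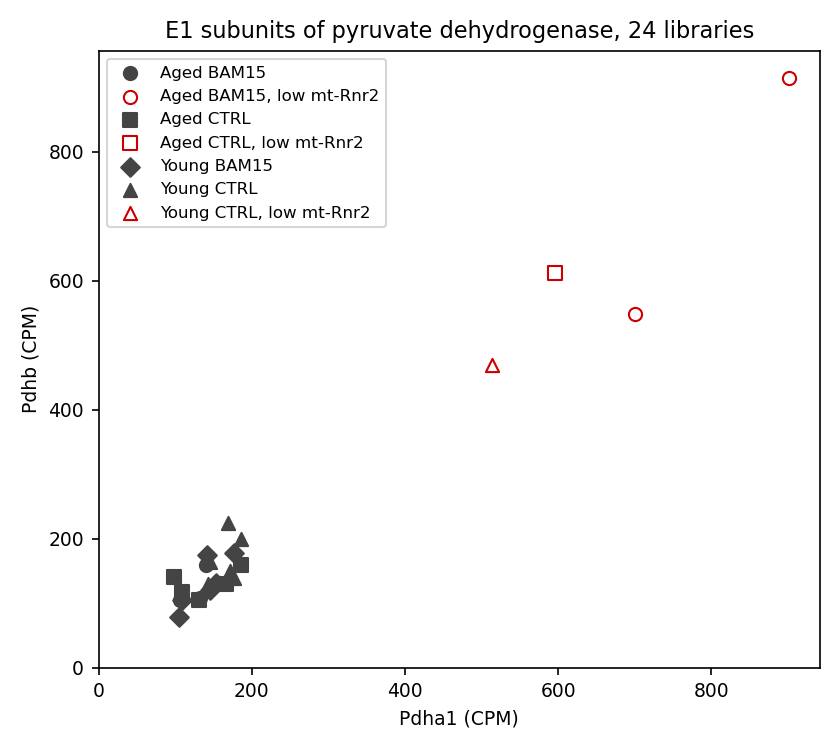
Pdhb (vertical axis, CPM) against Pdha1 (horizontal axis, CPM), 1 point for each of the 24 libraries, with the group as the shape and the 4 libraries of low mt-Rnr2 as open red symbols. The open symbols lie at 514 to 902 CPM for Pdha1 and 470 to 914 CPM for Pdhb, and the filled ones at no more than 186 and 225 CPM.

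**Figure D2:**
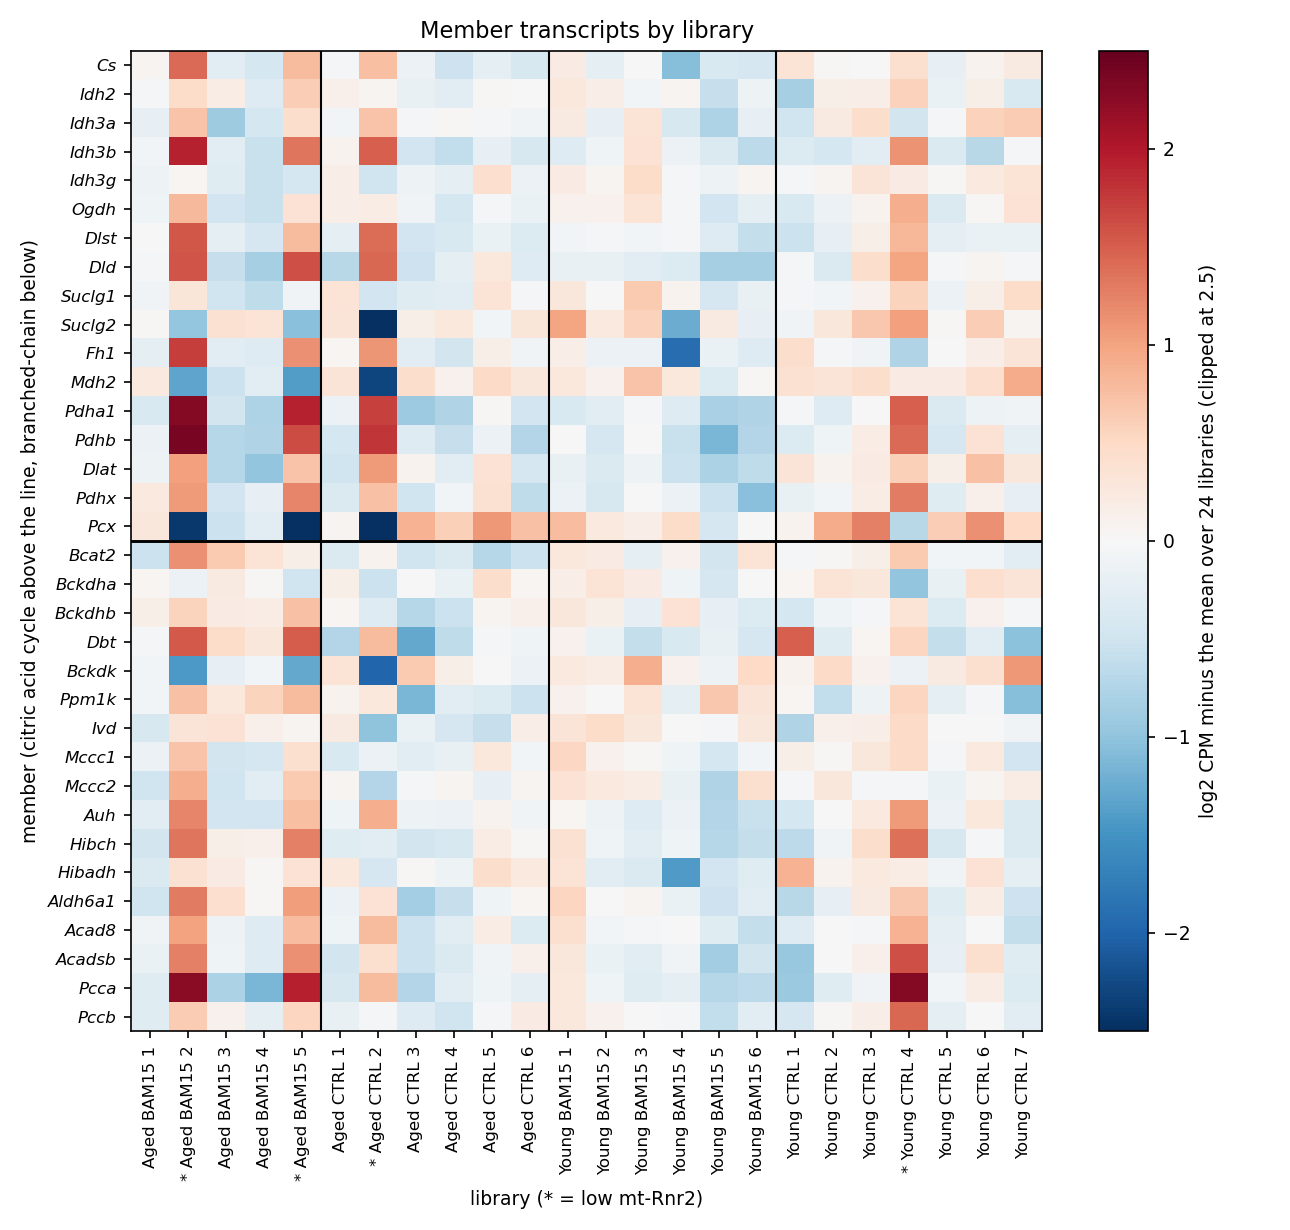
Log2 CPM of each of the 34 members (rows, cycle genes above the line) in each of the 24 libraries (columns, grouped, with an asterisk at low mt-Rnr2), as the difference from that gene's mean over the libraries, with the colour clipped at 2.5. In the 4 marked columns 11 members are higher than in every other library and Pcx is lower.

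Aged BAM15 was set against Aged CTRL to see what the uncoupler goes with in old mice. The branched-chain genes were mostly higher in Aged BAM15: 15 of 17 had a log2 change above 0, against 51.7% of all genes, with a median of 0.35 (range -0.52 to 1.14), where all genes had 0.02. None passed the threshold (0 of 17 called by edgeR, adjusted p under 0.05, where 0% of all genes were called). At an unadjusted p under 0.05, 6 of 17 were higher, against 4.5% of all genes, and 0 were lower, against 4.59%. DESeq2 called 0 of 17, where it called 0.736% of genes, and limma-voom with quality weights called 3 (Bcat2, Dbt and Ppm1k), where it called 6.05%. The members share libraries and vary together, so such counts are no count of independent genes.

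Bcat2, which takes the first step of the pathway in mitochondria, had the smallest p. It lay at 17.8, 57.3, 41.2, 33.1 and 28.9 CPM in Aged BAM15 1 to 5, and at 15.9, 19.2 and 27.8 CPM (lowest, median and highest) in Aged CTRL. Of the Aged BAM15 libraries, 4 lay above all of Aged CTRL and Aged BAM15 1 lay within it. The mean was 35.6 ± 14.8 CPM in Aged BAM15 (n = 5, SD) and 20.1 ± 4.11 CPM in Aged CTRL (n = 6, SD), a log2 change of 0.83 ± 0.24 (SE, edgeR, adjusted p = 0.280) or 1.78-fold. With the 4 libraries of low mt-Rnr2 left out it was 0.73 (edgeR, adjusted p = 0.270). It was 1.00 and called without Aged BAM15 1 (edgeR, adjusted p = 0.0490), and 0.84 and called in limma-voom (adjusted p = 0.0120), in a range of 0.0120 to 0.762 over its 15 alternatives that leave out no single library. Aged BAM15 1 had the highest muscle marker sum of its group. B cell markers were at a mean log2 CPM of 3.72 to 4.97 in Aged BAM15 2, 3 and 4. With the B cell and muscle markers as covariates the change was 0.85 (edgeR, adjusted p = 0.290), and the part of these cells in it was not tested. Bcat2 lies on chromosome 7 from 45570153 to 45589711 (GRCm38), and its exons overlap 0610005C13Rik on the other strand, so reads of the 2 genes may be mixed where strand was not used.

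The ketoacid dehydrogenase complex follows. Bckdhb, the beta subunit of its first enzyme, lay at 63.4, 84.2, 66.0, 64.7 and 94.6 CPM in Aged BAM15 1 to 5, against 34.7, 52.5 and 62.3 CPM in Aged CTRL. The groups did not overlap, as in 0.42% of all genes in this direction. The log2 change was 0.57 ± 0.20 (edgeR, adjusted p = 0.389), and 0.34 without the 4 libraries (edgeR, adjusted p = 0.570). Dbt, the core subunit that passes on the acyl group, lay at 59.7, 177, 84.6, 74.5 and 177 CPM in Aged BAM15, against 25.3, 48.3 and 107 CPM in Aged CTRL, a log2 change of 1.08 ± 0.40 (edgeR, adjusted p = 0.403) that was 0.74 without the 4 libraries. Bckdha, the alpha subunit, lay at 44.2 ± 7.90 CPM in Aged BAM15 (n = 5, SD) and 46.2 ± 10.1 CPM in Aged CTRL (n = 6, SD), with a log2 change of -0.06 and a 95% interval of -0.53 to 0.40. Bckdha had a log2 change of -0.0013 without the 4 libraries. Whether the subunits differed in their changes was not tested.

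The switch enzymes of the complex lay on opposite sides of 0. Ppm1k, the phosphatase that activates it, lay at 19.9, 34.8, 25.1, 30.9 and 36.0 CPM in Aged BAM15, against 9.32, 16.9 and 25.0 CPM in Aged CTRL. In Aged BAM15, 4 of 5 libraries were above all 6 of Aged CTRL, and the log2 change was 0.75 ± 0.27 (edgeR, adjusted p = 0.397), or 0.66 without the 4 libraries (edgeR, adjusted p = 0.385). In limma-voom it was called at 0.79 (adjusted p = 0.0335), in a range of 0.0335 to 0.762 over its alternatives. Bckdk, the kinase that inhibits the complex, lay at 33.8, 12.9, 30.7, 33.5 and 14.6 CPM in Aged BAM15, against 8.85, 37.6 and 55.6 CPM in Aged CTRL, with a log2 change of -0.52 ± 0.34 (edgeR, adjusted p = 0.679) that was -0.34 without the 4 libraries. The lowest Bckdk values in these 2 groups, 8.85, 12.9 and 14.6 CPM, were those of the libraries with low mt-Rnr2.

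Further down the valine branch, Hibch, which frees hydroxyisobutyrate, had a log2 change of 0.83 ± 0.34 (edgeR, adjusted p = 0.459) and Aldh6a1, which oxidises the semialdehydes of the valine branch, 0.76 ± 0.30 (edgeR, adjusted p = 0.434). Hibch lay at 210 and 199 CPM in Aged BAM15 2 and 5 and at 60.3 to 91.8 CPM in the other Aged BAM15 libraries, against 60.2 to 94.2 CPM in Aged CTRL. Aldh6a1 lay at 438 and 367 CPM in the same 2 libraries, at 125 to 238 CPM in the other Aged BAM15 libraries and at 98.7 to 228 CPM in Aged CTRL. With the 4 libraries left out the log2 changes were 0.12 for Hibch and 0.32 for Aldh6a1. The difference in Hibch thus sat mostly in Aged BAM15 2 and 5, while a part of that in Aldh6a1 remained without the 4 libraries. The 228 CPM of Aldh6a1 in Aged CTRL was that of Aged CTRL 2, also low in mt-Rnr2. Pcca, at 1.14 ± 0.56, had the widest change of the pathway and the widest spread, with 325 and 260 CPM in those 2 libraries and 30.5 to 55.1 CPM in the other Aged BAM15 libraries, against 118 CPM in Aged CTRL 2 and 40.8 to 63.0 CPM in the other Aged CTRL libraries. With the 4 libraries left out the sign of Pcca turned, to -0.38 (edgeR, adjusted p = 0.602). The remaining branched-chain genes had log2 changes between 0.05, of Hibadh, and 0.64, of Acadsb.

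**Figure D3:**
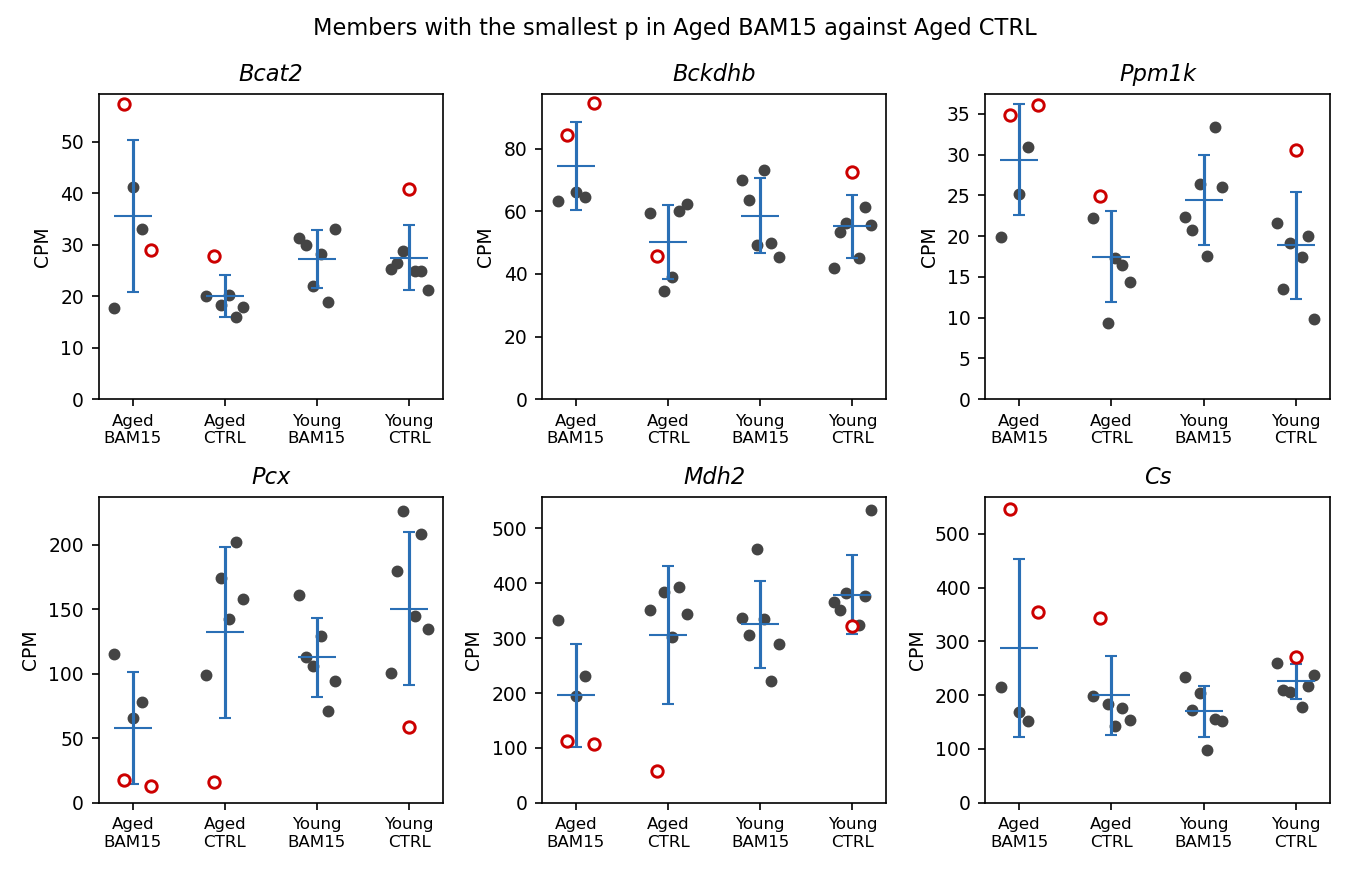
CPM of Bcat2, Bckdhb, Ppm1k, Pcx, Mdh2 and Cs in each library of the 4 groups, with the group mean and SD in blue and the libraries of low mt-Rnr2 as open red circles. Bckdhb lies at 63.4 CPM or more in Aged BAM15 and at 62.3 CPM or less in Aged CTRL, and the lowest Pcx and Mdh2 values among the aged libraries are open circles.

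The cycle genes were less uniform in aged mice on BAM15. Of 17, 11 had a log2 change above 0, against 51.7% of all genes, with a median of 0.26 (range -1.19 to 0.88). None was called by edgeR, which called 0% of all genes, or by DESeq2, which called 0.736% of 14002 genes with an adjusted p. At an unadjusted p under 0.05, 1 of 17 was lower, against 4.59% of all genes, and 0 were higher, against 4.5%. Limma-voom called the same gene, Pcx, where it called 6.05% of all genes. A count of 1 in 17 is near these last shares. Without the 4 low-mt-Rnr2 libraries, the median was -0.17 with 6 of 17 above 0 (51.4% of all genes). The median of the branched-chain genes was then 0.02 with 10 of 17 above 0, and 2 of them, Bcat2 and Ppm1k, had an unadjusted p under 0.05 and were higher, against 5.84% of genes. The cycle genes Mdh2 and Pcx were then lower at that p, against 5.41%. Leaving them out also leaves fewer mice in each aged group. With a term for the 4 instead, chosen after seeing the data, the medians were 0.070 for the cycle and 0.13 for the branched-chain genes. So the size of both medians, and the sign of that of the cycle, depended on how these libraries were treated.

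Pcx, the pyruvate carboxylase, lay at 116, 17.7, 65.7, 78.1 and 12.7 CPM in Aged BAM15 1 to 5, against 16.1, 150.3 and 202 CPM (lowest, median and highest) in Aged CTRL. The 17.7, 12.7 and 16.1 CPM were those of the libraries with low mt-Rnr2. Of the other libraries, Aged BAM15 held 65.7 to 116 CPM and Aged CTRL 99.2 to 202 CPM. The log2 change was -1.19 ± 0.51 (edgeR, adjusted p = 0.490) with all libraries and -0.84 without the 4 (edgeR, adjusted p = 0.333). Limma-voom called it at -1.05 (adjusted p = 0.0267), in a range of 0.0267 to 0.807 over its alternatives.

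Mdh2, the malate dehydrogenase that closes the cycle, lay at 334, 113, 194, 231 and 107 CPM in Aged BAM15, against 57.5, 348 and 393 CPM in Aged CTRL. Its log2 change was -0.64 ± 0.35 (edgeR, adjusted p = 0.603), and -0.49 without the 4 libraries (edgeR, adjusted p = 0.427). Mdh2 and Pcx, which meet at oxaloacetate, had the lowest changes of the cycle genes, and both were below 0 also without the 4 libraries. Cs, the citrate synthase that uses oxaloacetate, lay at 215, 546, 169, 151 and 355 CPM in Aged BAM15, against 143, 179 and 344 CPM in Aged CTRL. Its log2 change was 0.53 ± 0.29 (edgeR, adjusted p = 0.613) but 0.06 without the 4 libraries, where its 2 highest values are left out. Pdha1 (0.88 ± 0.53) and Pdhb (0.80 ± 0.53) stood at 396 ± 376 and 367 ± 358 CPM in Aged BAM15 (n = 5, SD) and 215 ± 190 and 211 ± 197 CPM in Aged CTRL (n = 6, SD), with SDs about as large as the means. With the 4 libraries left out both changes turned below 0, to -0.13 for Pdha1 and -0.077 for Pdhb (edgeR, adjusted p = 0.875 and 0.946).

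**Figure D4:**
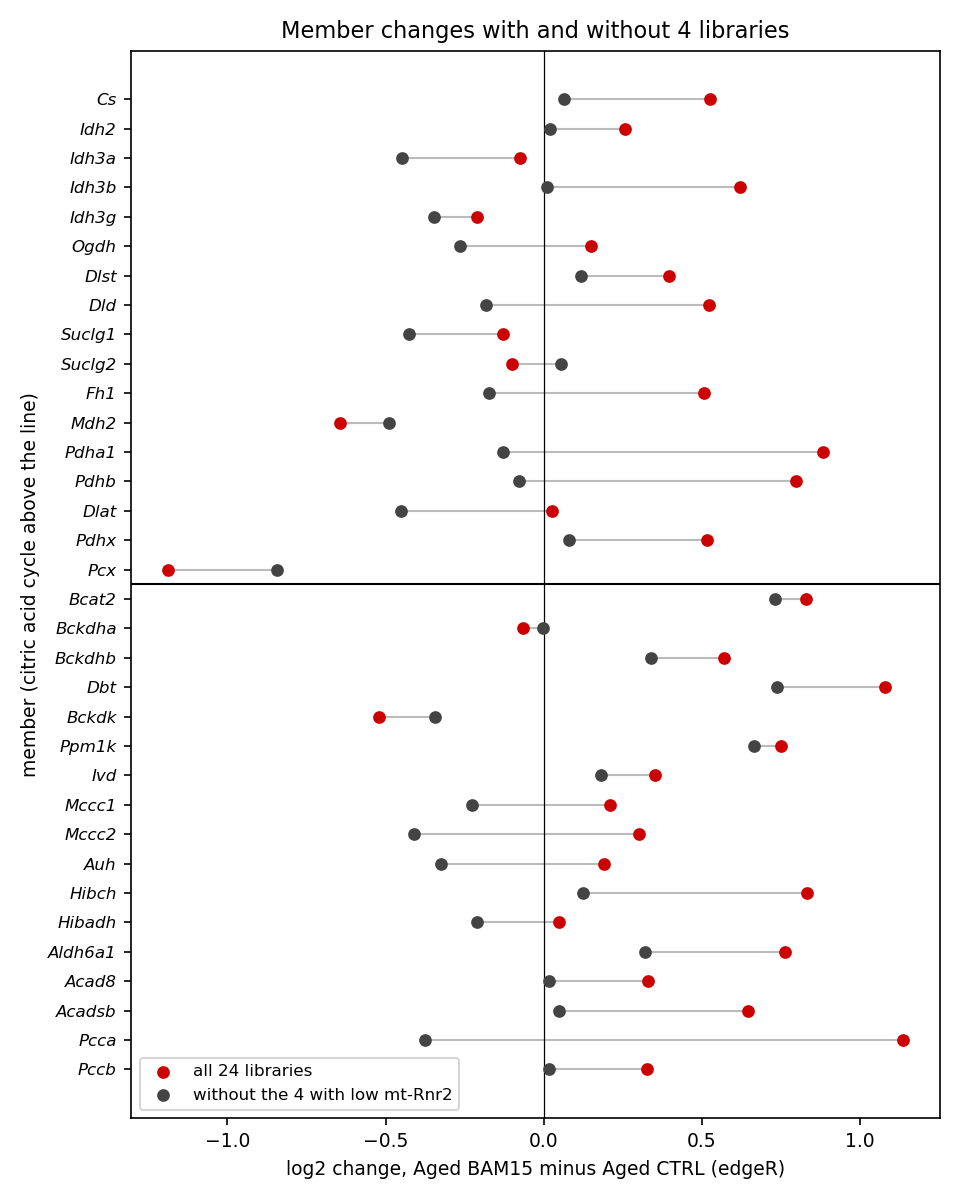
Log2 change of each of the 34 members in Aged BAM15 against Aged CTRL (horizontal axis, edgeR), with all 24 libraries in red and with the 4 of low mt-Rnr2 left out in dark grey, cycle genes above the line. Bcat2 lies at 0.83 and 0.73 and Ppm1k at 0.75 and 0.66, while Cs lies at 0.53 and 0.06 and Hibch at 0.83 and 0.12.

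Young BAM15 was set against Young CTRL, and here the cycle genes were lower: 0 of 17 had a log2 change above 0, against 52.7% of all genes, with a median of -0.31 (range -0.77 to -0.03), where all genes had 0.03. None was called by edgeR, where 0% of all genes were called, or by DESeq2, where 1.37% of 11858 genes with an adjusted p were. At an unadjusted p under 0.05, 0 were higher, against 6.18% of all genes, 1 was lower, against 6.88%, and limma-voom called 1, against 4.26%. With Young CTRL 4 and the 3 aged libraries of low mt-Rnr2 left out, 4 of 17 were above 0, against 52.3% of all genes, with a median of -0.28, and 6 of 17 (Cs, Idh3a, Dld, Fh1, Dlat and Pcx) had an unadjusted p under 0.05, against 10.3% of all genes. The branched-chain genes had a median of -0.09 (range -0.78 to 0.37) with 4 of 17 above 0, 0 called by edgeR or DESeq2 and 1 lower at an unadjusted p under 0.05. Of these, Ppm1k was higher at that p without the 4 libraries, against 9.26% of all genes, and Hibadh lower.

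Dlat, the core subunit of the pyruvate dehydrogenase complex that carries the acetyl group, had the smallest p among the cycle genes. It lay at 53.2, 67.9 and 85.0 CPM (lowest, median and highest) in Young BAM15, against 98.1, 113 and 153 CPM in Young CTRL. All 6 Young BAM15 libraries were below all 7 of Young CTRL, a separation found in this direction in 0.646% of all genes. The means were 69.1 ± 12.6 CPM in Young BAM15 (n = 6, SD) and 118 ± 20.2 CPM in Young CTRL (n = 7, SD), a log2 change of -0.77 ± 0.29 (edgeR, adjusted p = 0.278). It was -0.75 without the 4 low-mt-Rnr2 libraries (edgeR, adjusted p = 0.0968) and -0.70 with B cell and muscle markers as covariates (edgeR, adjusted p = 0.998). Limma-voom called it at -0.67 (adjusted p = 0.0340), in a range of 0.0340 to 0.998 over its alternatives. Dlat lies on chromosome 9 from 50634633 to 50659780, and no other annotated exon overlaps it.

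Other subunits of the complex lay lower as well. Pdhx, which ties the enzyme Dld to the core, lay at 21.9, 37.5 and 45.0 CPM in Young BAM15, against 36.7, 43.1 and 110.0 CPM in Young CTRL, a log2 change of -0.56 ± 0.31 (edgeR, adjusted p = 0.439) that was -0.29 without the 4 libraries. Dld, the dehydrogenase that the cycle and the branched-chain complex share, lay at 53.6, 77.3 and 84.2 CPM in Young BAM15, against 74.3, 94.6 and 189 CPM in Young CTRL, at -0.63 ± 0.39 (edgeR, adjusted p = 0.495) and -0.46 without the 4. Both groups overlapped in Pdhx and in Dld, and the highest value of Young CTRL was that of Young CTRL 4. Idh2, a mitochondrial isocitrate dehydrogenase that makes NADPH, lay at 140 ± 26.9 CPM in Young BAM15 (n = 6, SD) and 143 ± 42.5 CPM in Young CTRL (n = 7, SD), a log2 change of -0.03 with a 95% interval of -0.45 to 0.39.

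In the branched-chain pathway, Hibadh, which oxidises hydroxyisobutyrate in the valine branch, lay at 62.1, 133 and 211 CPM in Young BAM15, against 140.1, 189 and 305 CPM in Young CTRL. All but 1 of the Young BAM15 libraries lay below the lowest Young CTRL library. The log2 change was -0.57 ± 0.23 (edgeR, adjusted p = 0.307), and -0.60 without the 4 libraries (edgeR, adjusted p = 0.168). Auh, which hydrates an intermediate of leucine, lay at 62.4, 88.5 and 107 CPM in Young BAM15, against 76.5, 104 and 217 CPM in Young CTRL, a log2 change of -0.46 ± 0.29 (edgeR, adjusted p = 0.511). Acadsb, the short branched-chain acyl-CoA dehydrogenase, lay at 84.3, 132 and 187 CPM in Young BAM15, against 80.0, 155 and 474 CPM in Young CTRL, at -0.54 ± 0.34 (edgeR, adjusted p = 0.512). The highest value of each was that of Young CTRL 4, and without it the changes were -0.24 and -0.13. Bcat2, at 27.2 ± 5.58 CPM in Young BAM15 (n = 6, SD) and 27.5 ± 6.31 CPM in Young CTRL (n = 7, SD), had a log2 change of -0.01 with a 95% interval of -0.48 to 0.45. Ppm1k had 0.37 ± 0.25.

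B cell markers moved with this comparison, at a mean log2 CPM of 4.83 or more in 5 of 6 Young BAM15 libraries and in 2 of 7 Young CTRL libraries. All 10 markers were measured. With B cell and muscle covariates, 6 of 17 cycle genes and 10 of 17 branched-chain genes had a log2 change above 0, and the medians were -0.24 and 0.03. With the mean of the adipocyte markers as covariate instead, the medians were -0.25 and -0.04. In whole tissue, fewer cells of a type and less RNA per cell cannot be told apart, and the part of the other cells in these values was not tested further.

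**Figure D5:**
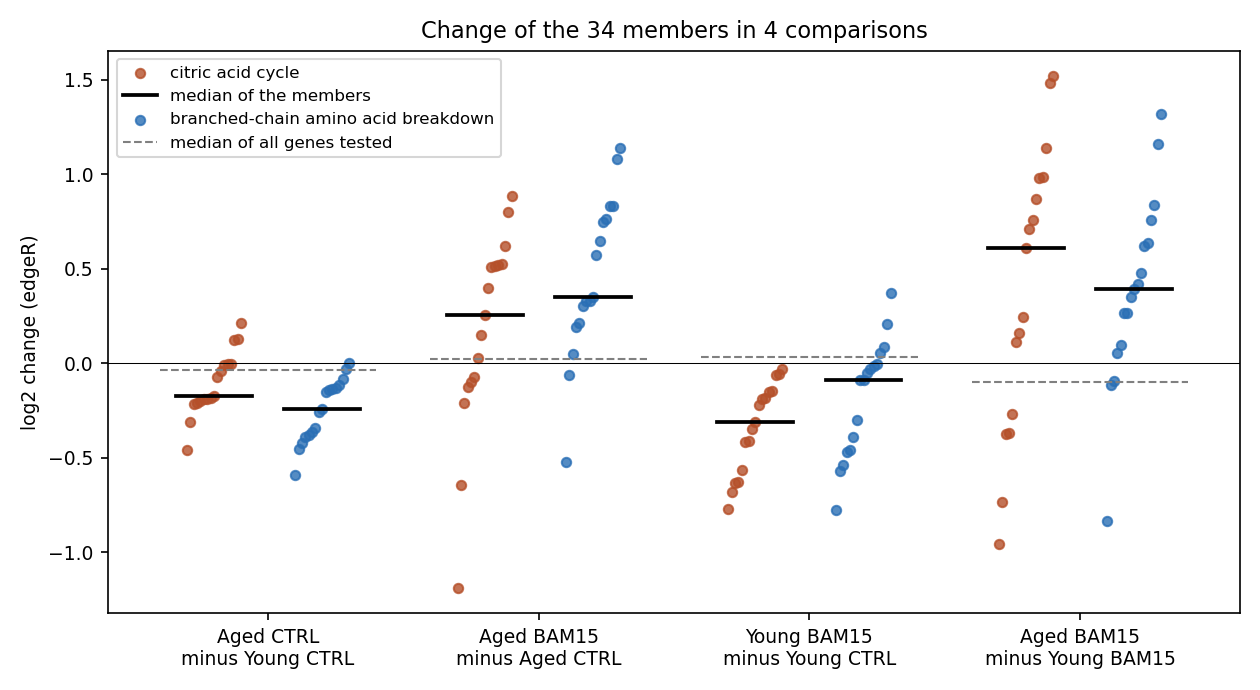
Log2 change (edgeR, vertical axis) of the cycle genes (brown) and the branched-chain genes (blue) in 4 comparisons, 1 point a gene, with the median of each pathway as a black line and that of all genes tested as a dashed line. All 17 cycle genes lie below 0 in Young BAM15 against Young CTRL, and 15 of 17 branched-chain genes lie above 0 in Aged BAM15 against Aged CTRL.

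Aged CTRL against Young CTRL asks what age goes with on this diet. Both pathways were a little lower in Aged CTRL. The cycle genes had a median log2 change of -0.18 (range -0.46 to 0.21) with 3 of 17 above 0, and the branched-chain genes -0.24 (range -0.59 to 0.00) with 1 of 17 above 0, against 46.5% of all genes and a median of -0.04. None was called by edgeR, where 0.207% of all genes were called, nor by DESeq2 or limma-voom, which called 1.15% and 0.922%. In edgeR 0 of 34 had an unadjusted p under 0.05, against 4.56% of all genes higher and 3.86% lower. Without the 4 low-mt-Rnr2 libraries, the medians were -0.13 and -0.09 with 2 of 17 and 0 of 17 above 0, against 45.2% of all genes. Dlat and Bcat2 then had an unadjusted p under 0.05 and were lower, against 5.61% of genes, and 0 were higher, against 5.53%.

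Of the branched-chain genes, Bcat2 lay at 15.9, 19.2 and 27.8 CPM (lowest, median and highest) in Aged CTRL, against 21.3, 25.2 and 40.9 CPM in Young CTRL. Of the 6 Aged CTRL libraries, 5 lay below every Young CTRL library, and Aged CTRL 2, at 27.8 CPM, did not. Its log2 change was -0.45 ± 0.22 (edgeR, adjusted p = 0.601) and -0.45 without the 4 libraries. Pccb, the other subunit of propionyl-CoA carboxylase, lay at 102, 134 and 167 CPM in Aged CTRL, against 108, 144 and 391 CPM in Young CTRL, and had -0.36 ± 0.26 (edgeR, adjusted p = 0.812), which was -0.031 without the 4 libraries and -0.013 without Young CTRL 4 alone, where it lay at 391 CPM. Ivd, isovaleryl-CoA dehydrogenase of the leucine branch, lay at 51.2, 84.4 and 121 CPM in Aged CTRL, against 61.2, 104 and 143 CPM in Young CTRL, with -0.26 ± 0.20 (edgeR, adjusted p = 0.846), or -0.052 without the 4.

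Of the cycle genes, Idh3g, a regulatory subunit of the NAD-dependent isocitrate dehydrogenase, lay at 90.1, 115 and 171 CPM in Aged CTRL, against 125, 147 and 161 CPM in Young CTRL, a log2 change of -0.22 ± 0.16 (edgeR, adjusted p = 0.822), or -0.13 without the 4 libraries. Suclg2, the GTP-forming subunit of succinyl-CoA ligase, lay at 1.82, 16.7 and 18.3 CPM in Aged CTRL, against 13.6, 17.8 and 29.8 CPM in Young CTRL, at -0.46 ± 0.39 (edgeR, adjusted p = 0.868), or -0.23 without Aged CTRL 2, which held the 1.82 CPM. Mdh2 had -0.31 ± 0.32 (edgeR, adjusted p = 0.910), or -0.10 without Aged CTRL 2. In all 3 the groups overlapped. Pdha1 and Pdhb each averaged about the same, with 215 ± 190 and 211 ± 197 CPM in Aged CTRL (n = 6, SD) and 215 ± 133 and 211 ± 119 CPM in Young CTRL (n = 7, SD). Their 95% intervals of -1.01 to 1.01 and -1.02 to 1.02 show how little these groups can tell for the 2 genes.

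Ogdh, the first enzyme of the oxoglutarate dehydrogenase complex, varied little by group, with 228 ± 95.7 CPM in Aged BAM15 (n = 5, SD), 206 ± 31.9 in Aged CTRL (n = 6, SD), 211 ± 40.9 in Young BAM15 (n = 6, SD) and 234 ± 81.4 in Young CTRL (n = 7, SD). The order of these means is within their spread. The order of Bcat2 was 35.6, 20.1, 27.2 and 27.5 CPM in the same groups, and of the 4 pairs of groups compared only Aged BAM15 and Aged CTRL, its extremes, had an unadjusted p under 0.05, which did not pass adjustment (edgeR, adjusted p = 0.280). Since Aged CTRL enters both its comparisons, the lower value with age and the higher value with BAM15 share those 6 libraries.

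The aged and young mice on BAM15 were compared directly as well. The cycle genes had a median log2 change of 0.61 (range -0.96 to 1.52) with 12 of 17 above 0, and the branched-chain genes 0.39 (range -0.83 to 1.32) with 14 of 17 above 0, against 44.6% of all genes and a median of -0.10. None was called by edgeR, where 0.427% of genes were called. DESeq2 and limma-voom called none, against 3.38% of 10940 genes with an adjusted p and 1.88% of all genes. In edgeR 7 cycle and 5 branched-chain genes were higher at an unadjusted p under 0.05, against 10.6% of all genes, and 2 and 1 were lower, against 5.78%. Without the 4 low-mt-Rnr2 libraries, of which 2 are Aged BAM15 and none Young BAM15, the medians were -0.10 and 0.05 with 5 and 9 of 17 above 0, against 44.9% of all genes. Then 0 members were higher at an unadjusted p under 0.05, against 3.66% of all genes, and 3 (Idh3g, Suclg1 and Mccc2) were lower, against 2.7%.

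Pdha1 and Pdhb had the smallest p among the cycle genes here. Pdha1 lay at 140, 902, 133, 107 and 700.0 CPM in Aged BAM15 1 to 5, against 105, 143 and 177 CPM in Young BAM15, a log2 change of 1.52 ± 0.53 (edgeR, adjusted p = 0.190). Pdhb lay at 159, 914, 108, 105 and 548 CPM, against 79.4, 126 and 178 CPM, at 1.48 ± 0.53 (edgeR, adjusted p = 0.198). In both genes, 3 of 5 Aged BAM15 libraries lay within the Young BAM15 range, and without the 4 libraries the changes were -0.11 and -0.06. Dbt had 1.16 ± 0.40 (edgeR, adjusted p = 0.182), and 0.53 without the 4. Hibch had 0.84 ± 0.34 (edgeR, adjusted p = 0.236), and 0.17 without the 4. Bckdk, the kinase, was the branched-chain gene lower at an unadjusted p under 0.05, at 25.1 ± 10.4 CPM in Aged BAM15 (n = 5, SD) and 44.7 ± 12.0 CPM in Young BAM15 (n = 6, SD), or -0.83 ± 0.34 (edgeR, adjusted p = 0.243). Its 2 lowest Aged BAM15 values were those of the low-mt-Rnr2 libraries, and with the 4 left out the change was -0.43 and its unadjusted p was above 0.05 (edgeR, adjusted p = 0.852).

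Whether BAM15 went with a different change in aged and in young mice was tested as an interaction, the log2 change in aged minus that in young. The median was 0.59 over the cycle genes, with 13 of 17 above 0, and 0.62 over the branched-chain genes, with 15 of 17 above 0, against 47.5% of all genes and a median of -0.04. None was called by edgeR, where 0% of all genes were called, or by DESeq2 or limma-voom, which called 0.0126% and 0%. At an unadjusted p under 0.05, 3 cycle genes and 5 branched-chain genes were higher, against 3.22% of all genes, and 0 were lower, against 1.85%. Pdhx (1.08 ± 0.45), Cs (0.94 ± 0.40), Dbt (1.55 ± 0.54) and Hibch (1.22 ± 0.46) each had an adjusted p of 0.899 (edgeR), and without the 4 libraries these were 0.37, 0.44, 1.16 and 0.19. With the 4 libraries left out the medians were 0.13 and 0.16, with 9 of 17 above 0 in each pathway, against 49.9% of all genes. Bcat2 and Dbt were then higher at an unadjusted p under 0.05, against 1.67%, and 0 were lower, against 1.77%. A different response of these pathways by age was thus not shown, in either direction.

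Other genes of the 2 pathways were measured too. Of 18 further cycle genes (other subunits, kinases, phosphatases and carriers) and 16 measured further branched-chain genes, edgeR called 0 in each comparison. Over all genes it called 0 to 0.427%, by comparison. In Aged BAM15 against Aged CTRL, Pdp2, a phosphatase that activates pyruvate dehydrogenase, had 0.69 ± 0.32 (edgeR, adjusted p = 0.525). Pdk4, a kinase that inhibits the same enzyme, lay at 7.64 ± 3.07 CPM in Aged BAM15 (n = 5, SD) and 30.9 ± 46.1 CPM in Aged CTRL (n = 6, SD), or -2.01 ± 0.98 (edgeR, adjusted p = 0.550). Hadha, of the trifunctional protein, had -0.87 ± 0.39 and Slc3a2, the heavy chain of an amino acid transporter, -0.78 ± 0.42 (edgeR, adjusted p = 0.501 and 0.599). Without the 4 libraries Pdp2 had 0.78, Pdk4 -2.40, Hadha -0.60 and Slc3a2 -0.54, and none was called, as 0% of all genes were. Mpc1, of the pyruvate carrier, then had the smallest p of the further genes, at -0.88 (edgeR, adjusted p = 0.263). Mpc2, of the same carrier, then had -0.75 (edgeR, adjusted p = 0.402). With all libraries these 2 changes were -0.050 and -0.068. Of the whole lists, with all libraries, 9 of 18 further cycle genes and 10 of 16 further branched-chain genes were above 0, against 51.7% of all genes.

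In Young BAM15 against Young CTRL, Mpc2, a subunit of the pyruvate carrier, lay at 228 ± 64.7 CPM in Young BAM15 (n = 6, SD) and 419 ± 134 CPM in Young CTRL (n = 7, SD), or -0.88 ± 0.36 (edgeR, adjusted p = 0.308). Sucla2, the ATP-forming subunit of succinyl-CoA ligase, had -0.56 ± 0.37 (edgeR, adjusted p = 0.534). Oxct1, which activates ketone bodies, had -0.73 ± 0.28 and Acat1, the thiolase that ends isoleucine breakdown, -0.52 ± 0.27 (edgeR, adjusted p = 0.284 and 0.413). Without the 4 libraries Mpc2 had -0.73, Sucla2 -0.39, Oxct1 -0.60 and Acat1 -0.48. These 4 were named for their small p. Of the whole lists, 8 of 18 further cycle genes (median -0.14) and 2 of 16 further branched-chain genes (median -0.25) were above 0. Of all genes 52.7% were above 0, with a median of 0.03. With age, Pdp2 had -0.60 ± 0.30, Nnt, the transhydrogenase of the inner membrane, 0.71 ± 0.43, and Echs1, the enoyl-CoA hydratase of valine breakdown, -0.57 ± 0.19 (edgeR, adjusted p = 0.601, 0.722 and 0.298). Without the 4 libraries these were -0.28 for Pdp2, -0.088 for Nnt and -0.55 for Echs1. Bcat1, the cytosolic transaminase, lay at 33.9 ± 23.2 CPM in Aged CTRL (n = 6, SD) and 14.5 ± 6.74 CPM in Young CTRL (n = 7, SD), a log2 change of 1.22 ± 0.44 (edgeR, adjusted p = 0.338), or 0.94 without the 4. The cytosolic Bcat1 and the mitochondrial Bcat2 thus had log2 changes of opposite sign with age, neither of them called.

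In Aged BAM15 against Young BAM15, Bcat1 lay at 26.6 ± 16.9 CPM in Aged BAM15 (n = 5, SD) and 8.80 ± 3.85 CPM in Young BAM15 (n = 6, SD), or 1.59 ± 0.48 (edgeR, adjusted p = 0.146). Klf15, a transcription factor known to act on branched-chain genes, had 1.13 ± 0.39, Pdp1, another pyruvate dehydrogenase phosphatase, 0.99 ± 0.37, and Me2, a malic enzyme, -1.27 ± 0.46 (edgeR, adjusted p = 0.186, 0.211 and 0.205). With the 4 libraries left out Bcat1 had 0.72, Klf15 0.29, Pdp1 0.26 and Me2 -0.74. For the interaction the smallest p were those of Me2, Sdhb, Oxct1 and Mmut, with -1.25, 0.80, 0.82 and 0.57 (edgeR, adjusted p = 0.899 each), and -0.78, -0.091, 0.12 and 0.046 without the 4. Of all these genes none passed the threshold in any of the 5 comparisons, where edgeR called at most 0.427% of all genes.

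Within groups, the members varied together from library to library. The median correlation of their deviations from group means over the 24 libraries was 0.475 between cycle genes, 0.412 between branched-chain genes and 0.409 between one pathway and the other, where pairs of all genes of at least 5 CPM had -0.000575. Over the 20 libraries without low mt-Rnr2 these were 0.479, 0.313 and 0.287. The genes outside the members most like the mean of the cycle genes, among 10835 compared, were Atp5b (r = 0.965), Atp5j2 (0.931), Immp1l (0.919), Ndufc2 (0.919) and Atp5a1 (0.910). Of these, Atp5b, Atp5j2 and Atp5a1 encode parts of ATP synthase, Ndufc2 a part of complex I and Immp1l a protease of the inner membrane. The genes most like the branched-chain mean were Hadh (0.911), a dehydrogenase of fatty acid oxidation, then Cmbl (0.901), Sfxn1 (0.899), Ghitm (0.893) and Ntrk2 (0.891). Over the 20 libraries the r of these 10 genes lay between 0.733 and 0.933. The points share library, depth and cell makeup, so these values describe and do not test.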

How the data were processed

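The deposited counts are whole numbers of reads per Ensembl gene in 24 QuantSeq 3′ libraries of total RNA, 1 mouse each. A second deposited table holds the same genes as normalized signal, counts divided by 1 size factor a library, and was used only for gene symbols. Per the submitters' processing notes, GRCm38, R 3.4.3 and DESeq2 1.18.1 were used. For the aligner, the counter, its use of strand and any deduplication the entry is: not given in the sources used here. So counts can hold repeated copies of a molecule. Without strand, the 7 members whose exons overlap a gene on the other strand (among them Pdha1 and Bcat2) may share reads with it. The 1 member that overlaps a gene on its own strand (Hibadh) may share reads with that gene whether or not strand was used.

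From the counts, edgeR 4.0.16 (R 4.3.3) fitted all 4 groups with TMM factors, its filter on low counts by group (15939 of 17541 genes kept, all 34 members among them) and a robust quasi-likelihood F-test with 20 residual degrees of freedom. P-values were adjusted by Benjamini-Hochberg over 15939 genes and called at 0.05. CPM use the same factors, log2 CPM a prior count of 2. SE is the log2 change over the root of F, and intervals are 95%. Samples were grouped by age and treatment as labelled; replicate numbers gave no pairing. The lowest chi-square per gene between libraries of 1 group was 18.0, so none was a repeat of another. The fit was also run on simulated counts with known changes, drawn independently for each gene. Those counts held no shift shared by genes within a library. They thus cannot show how the fit handles the 4 libraries with low mt-Rnr2.

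The alternatives were DESeq2 1.42.0, limma-voom 3.58.1 with quality weights, other scalings and filters, marker covariates, a replicate block, the compared groups alone and libraries left out. Shares called by DESeq2 are over the genes to which it gave an adjusted p, 10940 to 15854 by comparison. The named genes are the 3 members of each pathway with the smallest p in each treatment or age comparison, 2 in the others, and 8 chosen by place in the pathway. Other members named, such as Dbt, Hibch, Aldh6a1, Pcca and Idh2, were chosen after their values were seen. The members and lists were chosen with earlier results of these data known. P-values measure the spread between these mice. The comparisons share groups. Young CTRL is the reference both for age and for BAM15 in young mice, so those 2 sets of changes share its libraries. Aged CTRL is the reference for BAM15 in aged mice and the compared group for age.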

Additional observations from a re-analysis of the deposited data

Results flagged for a closer look

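Single libraries stood far from the rest of their group in 18 of 80 sets of 1 gene in 1 group, by Dixon's ratio at its 95% value. The ratio flags about 1 in 20 among independent values of normal spread. The members vary together, so that rate is no measure for these 18. Of the 18, 16 were in Young CTRL 4 or Aged CTRL 2, libraries with low mt-Rnr2. The ratio looks for a single extreme value, so Aged BAM15 2 and 5, both high in the same group, can hide each other. Pdha1 reached 902 CPM in Aged BAM15, with a median of 140 CPM, and was not flagged there. In Aged CTRL 2, Pdha1 lay at 596 CPM, Pdhb at 611 CPM, Cs at 344 CPM, Dld at 262 CPM and Auh at 195 CPM, all above the rest of Aged CTRL. Bcat2 at 27.8 CPM was above it too, while Mdh2 at 57.5 CPM and Suclg2 at 1.82 CPM were below it.

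In Young CTRL 4, Pdha1 lay at 514 CPM, Pdhb at 469.7 CPM, Pdhx at 110.0 CPM, Pccb at 391 CPM, Acadsb at 474 CPM, Auh at 217 CPM, Hibch at 215 CPM and Bcat2 at 40.9 CPM, all above the other Young CTRL libraries. Outside these libraries, Mdh2 lay at 533 CPM in Young CTRL 7, the library with the highest muscle marker sum of its group. Dbt lay at 174 CPM in Young CTRL 1. That library held B cell markers at a mean log2 CPM of 5.09, and Young CTRL 5 held them at 5.08. Young CTRL 1 also had the highest means of its group for skin keratinocyte (7.54) and mammary epithelium (4.64) markers. These means rest on 4 of 8 listed keratinocyte markers and 3 of 7 listed mammary markers. Of the mammary list, Csn2, Csn3 and Wap were absent or without counts, so the mean does not show mammary tissue as such. Its adipocyte mean, 9.88, was the lowest of the group. The part of these in the values was not tested.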

How the results depend on the processing

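Of the counts of members called, 145 of 148 alternatives other than leaving out 1 library gave 0 as well. The exceptions were limma-voom, with 1 cycle and 3 branched-chain genes in Aged BAM15 against Aged CTRL and 1 cycle gene in Young BAM15 against Young CTRL. Leaving out 1 library gave 0 to 1 branched-chain genes in Aged BAM15 against Aged CTRL, the 1 being Bcat2 without Aged BAM15 1. Of the named genes' changes, 378 of 386 stayed on the same side of 0 and of the threshold. Those of Pdha1 and Pdhb in Aged BAM15 against Young BAM15 reversed, to -0.062 and -0.042 in limma-voom, and to -0.11 and -0.064 once the 4 libraries of low mt-Rnr2 were left out.

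Medians are given for the cycle and then the branched-chain genes. Without the 4 libraries they were -0.17 and 0.018 in Aged BAM15 against Aged CTRL, where limma-voom gave -0.052 (7 of 17 above 0) and 0.15 (11 of 17) and the term for the 4 gave 0.070 and 0.13. In Aged BAM15 against Young BAM15 they were -0.096 and 0.051 without the 4, -0.023 and -0.011 with a term for the 4 (chosen after seeing the data), and -0.086 and -0.0010 in limma-voom. For the interaction they were 0.13 and 0.16 without the 4, 0.074 and 0.13 with the term, and 0.13 and 0.16 in limma-voom, and the branched-chain median was 0.30 with the adipocyte covariate. Leaving out 1 library moved the cycle median of the interaction between 0.25 (without Aged BAM15 2) and 1.05 (without Aged CTRL 2). The cause was not tested.

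The replicate numbers did not pair the mice: the median correlation of deviations was -0.044 in 33 same-numbered pairs and 0.00433 in 182 others, and 3 of 24 libraries were closest to their own number. With the replicate block no member was called, and the medians were 0.25 and 0.38 in Aged BAM15 against Aged CTRL, -0.23 and -0.17 in Young BAM15 against Young CTRL, -0.26 and -0.28 in Aged CTRL against Young CTRL, 0.45 and 0.35 in Aged BAM15 against Young BAM15, and 0.58 and 0.62 for the interaction.

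Over all genes, edgeR called 33 in Aged CTRL against Young CTRL, and 4 to 179 in the alternatives. It called 0 in Aged BAM15 against Aged CTRL (1450 at an unadjusted p under 0.05; 0 to 964) and 0 in Young BAM15 against Young CTRL (2081; 0 to 679). It called 68 in Aged BAM15 against Young BAM15 (13 to 370), and 0 for the interaction (809; 0 to 2). DESeq2 called 179, 103, 162, 370 and 2 and limma-voom 147, 964, 679, 300 and 0. With 5 to 7 mice a group and a common biological coefficient of variation of 0.621, a change missing the threshold is not shown to be absent.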

Other observations

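Over the 34 members, the deviation in the 4 libraries with low mt-Rnr2 went with the GC content of the transcript (Pearson r = -0.52, Spearman rho = -0.513) and hardly with its length (r = -0.0262). Over 13696 genes these were -0.106 and -0.0854. The correlations are across genes, which are not independent replicates, and describe these libraries only.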
